A study of Mus musculus with 4 samples.

Results

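ATM, RAD1 and XRCC2 are 3 human genes of the DNA damage response, and their transcripts were read here in breast tumors grown from cells with and without depletion of the palmitoyltransferase DHHC3. They were taken from the deposited table as the probe sets (groups of short probes that together report 1 transcript) whose platform annotation gives exactly 1 symbol equal to ATM, RAD1 or XRCC2. This gave 3 of the 99 genes named singly in the table, on 3 of its 137 probe sets: 212672_at for ATM, 204461_x_at for RAD1 and 207598_x_at for XRCC2. The genes were picked from a larger table with their values in the comparison already known, so their differences are given as a description and carry no test.

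The tumors were orthotopic xenografts of the triple-negative human breast cancer line MDA-MB-231, implanted into mammary fat pads of athymic nude mice, all female (Crl:NU(NCr)-Foxn1nu). The host strain lacks a normal thymus and so has few mature T cells, while its other stromal and immune cells remain. 2 tumors came from cells carrying a control shRNA and 2 from cells carrying a DHHC3 shRNA, where an shRNA is a short hairpin RNA that lowers the transcript it matches. The 4 tumors thus share the cell line, the host strain, the stable expression of a hairpin and the labelled tumor age of 35 days. The study asked how DHHC3 bears on tumor growth, oxidative stress and senescence, with 10 injections per group and tumor volumes followed for 30 days. For the hairpin sequences, the number of clones, the ages of the mice and whether each tumor grew in its own mouse, the labels used here have no entry.

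The DNA damage response detects broken or stalled DNA, halts the cell cycle and directs repair. ATM is the kinase that answers double-strand breaks by phosphorylating checkpoint and repair proteins. RAD1 is a subunit of the ring-shaped clamp that also holds RAD9A and HUS1; loaded at damaged DNA, the clamp helps to activate the related kinase ATR. XRCC2 is part of a complex that assists homologous recombination, the repair of breaks from an intact copy. Much of this pathway is controlled by phosphorylation and protein assembly, which RNA arrays do not measure.

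Values are processed intensities per probe set, linear and in arbitrary units. The median intensity over the 137 probe sets was between 312 and 351 on the control arrays and between 458 and 484 on the DHHC3 shRNA arrays. How the arrays were scaled to each other is not given in the sources used here. ZDHHC3, the targeted transcript that encodes DHHC3, read 971 and 854 in the control tumors and 240 and 264 in the DHHC3 shRNA tumors, so each array went with its group label. The tissue label itself could not be checked, because of 39 marker genes in 7 lists (breast cancer line, luminal and basal epithelium, leukocytes, endothelium, fibroblasts with pericytes, adipocytes) only S100A4 was in the table. In these bulk samples, a different share of human tumor cells and a different amount of RNA per cell cannot be told apart.

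ATM was higher in both DHHC3 shRNA tumors than in either control tumor. Its probe set read 484 and 456 units in the control tumors and 815 and 791 units in the DHHC3 shRNA tumors. The lowest DHHC3 shRNA array lay 1.63-fold above the highest control array, and the widest of the 4 comparisons of single arrays was 1.79-fold. Within a group the arrays lay much closer, 1.06-fold apart in the controls and 1.03-fold apart after DHHC3 depletion. The means were 470 ± 19.8 and 803 ± 17.0 units (SD, n = 2 each), a 1.71-fold difference between geometric means. On the log2 scale this was 0.77 ± 0.09 (SE from limma's fit across the table). The suffix of this probe set, _at, marks probes designed for 1 transcript, which makes ATM the only one of the 3 genes read on such a probe set.

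RAD1 was also higher in both DHHC3 shRNA tumors, with no overlap between the groups. The clamp subunit's probe set gave 3602 and 4102 units in the control tumors and 6670 and 6815 units in the DHHC3 shRNA tumors. The control arrays were 1.14-fold apart, the widest spread within a group among the 3 genes, and the DHHC3 shRNA arrays 1.02-fold. The nearest arrays of the 2 groups differed 1.63-fold, as for ATM, and the farthest 1.89-fold. The means were 3852 ± 353 and 6743 ± 103 units (SD, n = 2 each), a 1.75-fold difference, or 0.81 ± 0.10 on the log2 scale (SE from the same fit). RAD1 gave the highest signal of all 137 probe sets on both DHHC3 shRNA arrays, and ranked 3 and 2 on the control arrays. Signal depends on the probes, so this rank is a property of the probe set and no measure of how much RAD1 RNA there was.

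XRCC2 had the largest difference of the 3 genes and the dimmest probe set. The recombination gene's probe set read 140 and 139 units in the control tumors and 266 and 276 units in the DHHC3 shRNA tumors. All 4 comparisons of single arrays fell between 1.89-fold and 1.99-fold. The means were 140 ± 1.06 and 271 ± 7.28 units (SD, n = 2 each), a 1.94-fold difference, or 0.96 ± 0.08 on the log2 scale (SE from the same fit). The control arrays differed by 1.01-fold and the DHHC3 shRNA arrays by 1.04-fold, and the table has no detection calls to show how far 140 units lies above background.

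The probe sets of RAD1 and XRCC2 carry the suffix _x_at, which marks probes that can also bind other transcripts. How much of their signal came from RAD1 and XRCC2 was not tested. In the table, 28 of 137 probe sets (20.4%) had this suffix, and among those with 1 gene symbol 16 of 101 (15.8%). Of the 28, 22 were higher in the DHHC3 shRNA tumors with a median fold of 1.90, and of the 109 others 79 were higher with a median fold of 2.05. The probes target human sequence, and how much RNA of the mouse host bound to them was not measured.

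**Figure D1:**
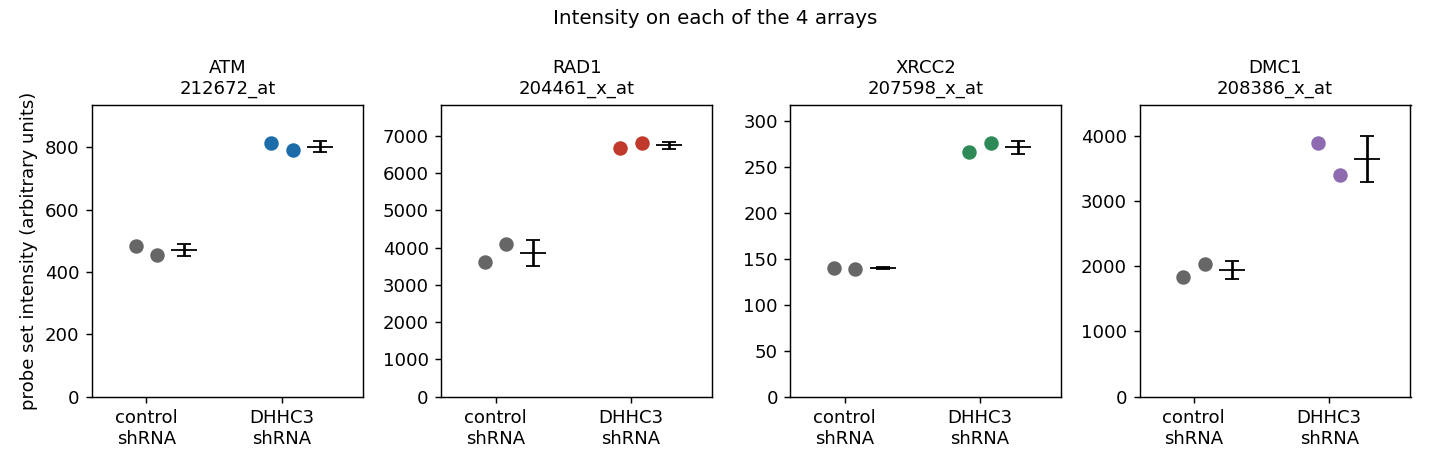
Probe set intensity (y axis, arbitrary units, from 0) of ATM, RAD1, XRCC2 and the related recombinase gene DMC1 on each array, by group (x axis). Dots are single arrays, and the bar with whiskers beside each group is its mean and SD (n = 2); in every panel both DHHC3 shRNA arrays lie above both control arrays, and RAD1 shows the widest control spread among the first 3 genes.

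Of 136 other genes in 8 lists of damage signalling and repair, 1 was present among the 99 genes named singly in the table, DMC1. The share of all genes on the array that the table holds was not worked out. This count is therefore no result about the pathway. Among the lists with 0 members in the table were those of the ATM and ATR kinases with their activators and checkpoint targets (16 genes), the other clamp and clamp loader subunits (10), the Fanconi anemia proteins (14), end joining (18), mismatch and excision repair (33) and p53 targets (18). Partners of the kinase and the clamp are among the genes not in the table: CHEK2, MRE11, RAD50 and NBN for ATM, and RAD9A, HUS1 and RAD17 for RAD1. Whether these genes differed between the tumors was not analysed here.

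DMC1, a recombinase known for its role in meiosis, was 1 of 22 genes in the list of other homologous recombination. Its probe set, 208386_x_at, gave 1841 and 2042 units in the control tumors and 3896 and 3397 units in the DHHC3 shRNA tumors. DMC1 rose 1.88-fold, from 1941 ± 142 to 3646 ± 353 units (SD, n = 2 each; limma, Benjamini-Hochberg adjusted p = 0.00043 over the 137 probe sets). As 100% of the probe sets in the table passed and none had overlapping groups, this call does not set DMC1 apart and adds nothing to its values. The groups did not overlap, and the nearest arrays differed 1.66-fold. With each array centred on its median over the table DMC1 was 1.32-fold higher, and after quantile normalization 1.25-fold (limma adjusted p = 0.0144 and 0.0246). Most of the table passed there too, 124 of 137 probe sets with median centring and 104 of 137 with quantile normalization. Its suffix too marks probes that can bind other transcripts, so 3 of the 4 probe sets of the 3 genes and DMC1 had it. GTF2H3, a subunit of the TFIIH complex of transcription and excision repair, was in none of the lists and was noticed after its values were seen. Its probe set, 222104_x_at, has the same suffix and was 2.02-fold higher in the DHHC3 shRNA tumors. That placed it at rank 47 among the 101 higher probe sets, in a table where 35.8% were at least 2-fold higher.

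Every probe set of the table passed the same test, 100% of 137, and 73.7% passed with a higher value in the DHHC3 shRNA tumors. ATM, RAD1 and XRCC2 are 3 of these, and since they were picked from this comparison the count says nothing about them. In all 137 probe sets (100%) the groups did not overlap, with both DHHC3 shRNA arrays on top in 73.7%, so the missing overlap of the 3 genes is a feature of the whole table. How the authors chose these probe sets is not given in the sources used here. None had a fold between the nearest arrays of the 2 groups under 1.56, so the table holds only probe sets that separate this comparison. Shares, medians, standard errors and limma p-values over it describe these probe sets and not the tumors' transcripts at large. For any single gene, the smallest p that an exact two-sided permutation test can reach with 2 arrays per group is 0.333.

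Among the 101 probe sets that were higher, the 3 genes were not among the largest differences. XRCC2 ranked 58, RAD1 91 and ATM 94, counted from the largest difference. Next to XRCC2 stood ZFP36L2 at 1.94-fold on one side and KLHL28 at 1.94-fold on the other. RAD1 lay between an unnamed probe set at 1.76-fold and RANBP2 at 1.75-fold, and ATM between PRKAA1 at 1.73-fold and STX16 at 1.71-fold. DMC1 ranked 74. The median log2 difference of the 3 genes was 0.81, against 0.94 over all 137 probe sets, higher and lower ones together. Relative to that table median ATM lay at -0.16, RAD1 at -0.12 and XRCC2 at 0.02, and the median fold of the 101 higher probe sets was 1.99.

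ATM and RAD1 lay near the lower edge of the higher probe sets. The smallest fold between the nearest arrays of the 2 groups was 1.56 over all 137 probe sets. Of the 101 higher probe sets, 10 had a smaller nearest-array fold than RAD1, 13 a smaller one than ATM and 66 a smaller one than XRCC2. None of the 3 genes reached a 2-fold difference between group means, which 35.8% of the 137 probe sets did with a higher value in the DHHC3 shRNA tumors.

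**Figure D2:**
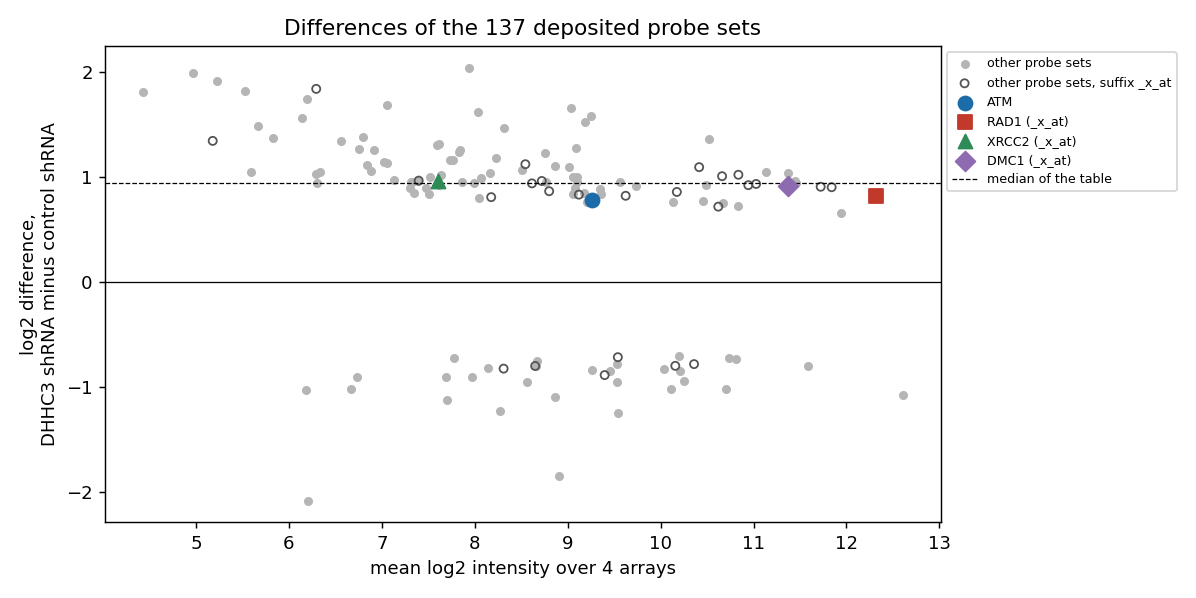
Log2 difference between DHHC3 shRNA and control tumors (y axis) against mean log2 intensity over the 4 arrays (x axis) for the 137 probe sets, with open circles for the suffix _x_at, coloured symbols for the damage response genes and a dashed line at the table's median of 0.94. The 4 coloured symbols lie within the band of higher probe sets. ATM and RAD1 lie below the dashed line and DMC1 just below it. XRCC2 lies at low signal and RAD1 at the highest signal of that band.

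The 3 genes shared a direction, but the order of the arrays within a group differed between them. ATM was higher in replicate 1 than in replicate 2 of both groups, RAD1 was lower in replicate 1 than in replicate 2 of both groups, and XRCC2 was higher in replicate 1 of the controls and lower in replicate 1 of the DHHC3 shRNA tumors. These gaps were small, from 1.01-fold to 1.14-fold. The replicate numbers do not show that a control tumor is paired with a DHHC3 shRNA tumor, so this order is a description only. Likeness was measured as the root mean square difference, over the 4 arrays, between log2 values centred on each probe set's mean, so that 0 is an identical pattern. It was 0.10 for each pair, ATM with RAD1, ATM with XRCC2 and RAD1 with XRCC2. Of 100 other probe sets with 1 gene symbol, 21 were closer to ATM than RAD1 was and 19 were closer to ATM than XRCC2 was. Likewise 19 were closer to RAD1 than ATM was, and 21 were closer to RAD1 than XRCC2 was. For XRCC2, 23 were closer to it than ATM was and 27 were closer to it than RAD1 was. These counts include lower probe sets, which cannot lie close to a higher gene on this measure. Only 66 of the 101 probe sets with 1 symbol were higher.

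The genes most like each member were picked from the 99 genes named singly in the table, of which DMC1 alone was in the damage response lists, so they could hardly come from those lists. For ATM they were COL13A1, a transmembrane collagen (0.037), SCRIB, a cell polarity scaffold (0.038), and CYLD, a deubiquitinase (0.039). For RAD1 they were ZKSCAN1, a zinc finger protein (0.012), RANBP2, a nuclear pore protein (0.016), and DOCK9, an exchange factor for CDC42 (0.039). For XRCC2 they were ITSN2, an endocytic scaffold (0.027), SLC46A3, a lysosomal transporter (0.032), and CALML4, a calmodulin-like protein (0.057). With 4 arrays in 2 groups, such likeness mainly shows a similar fold and a similar spread between replicates. The closest match, ZKSCAN1, read 462 and 523 units in the controls and 865 and 886 after DHHC3 depletion, with control replicate 1 the lowest array, as for RAD1.

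**Figure D3:**
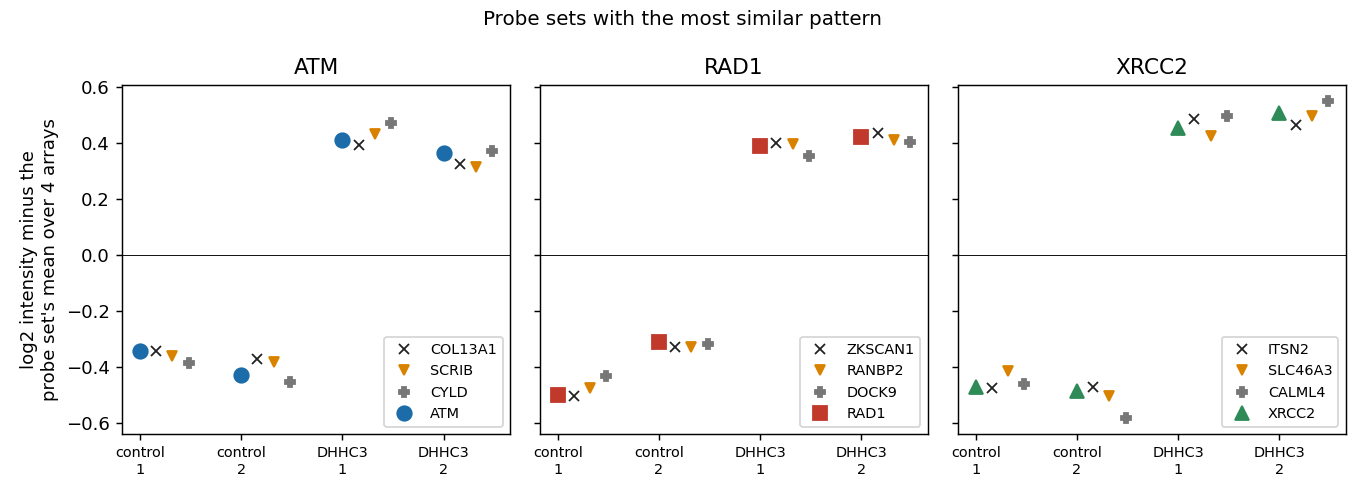
Log2 intensity minus the probe set's own mean over the 4 arrays (y axis) on each array (x axis) for ATM, RAD1 and XRCC2 (large symbols) and, beside each, the 3 named genes with the most similar pattern (small symbols). In each panel the 4 symbols lie close together on every array; control replicate 1 is the lowest array for RAD1, control replicate 2 for ATM, and the controls of XRCC2 nearly coincide.

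The size of the differences depended on how the arrays were scaled to each other, while the direction stayed the same under each rescaling. With each array centred on its median over the table, ATM was 1.20-fold, RAD1 1.23-fold and XRCC2 1.36-fold higher in the DHHC3 shRNA tumors. On that scale the lowest DHHC3 shRNA array still lay above the highest control array for each gene, by 0.12 for ATM, 0.24 for RAD1 and 0.29 for XRCC2 on the log2 scale, as it did in 73.7% of all probe sets. With each array centred on its trimmed mean, the folds were 1.27 for ATM, 1.30 for RAD1 and 1.44 for XRCC2. Centring on a table in which 101 probe sets were higher and 36 lower takes part of a common rise away by construction, so these folds are smaller for every higher probe set.

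After quantile normalization over the table the order of the 3 genes changed. RAD1 was then 1.76-fold, ATM 1.37-fold and XRCC2 1.13-fold higher, where XRCC2 had led as deposited. This setting keeps only the rank of a probe set on its array. XRCC2 ranked 99 and 96 on the control arrays and 91 on both DHHC3 shRNA arrays, a small move along the list. RAD1 also moved little, from ranks 3 and 2 to the first rank. On the quantile scale ranks 3 and 2 held log2 values of 12.08 and 12.15, and the first rank 12.93. The fold of RAD1 in this setting is thus set by the wide spacing at the top of the table. Both DHHC3 shRNA arrays stayed above both control arrays for all 3 genes, as they did in 67.2% of the 137 probe sets. As deposited and with either centring XRCC2 led the 3 genes. Quantile values are also set by the whole table, in which 101 probe sets were higher and 36 lower. Which gene differed most therefore depends on the scaling and cannot be settled from this table.

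When each array was left out in turn, the log2 difference ran from 0.73 to 0.82 for ATM, from 0.72 to 0.90 for RAD1 and from 0.93 to 0.98 for XRCC2. Without control replicate 2, RAD1 came closest to XRCC2, and without control replicate 1 RAD1 fell below ATM. The order of RAD1 and ATM is thus within the spread of single arrays.

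**Figure D4:**
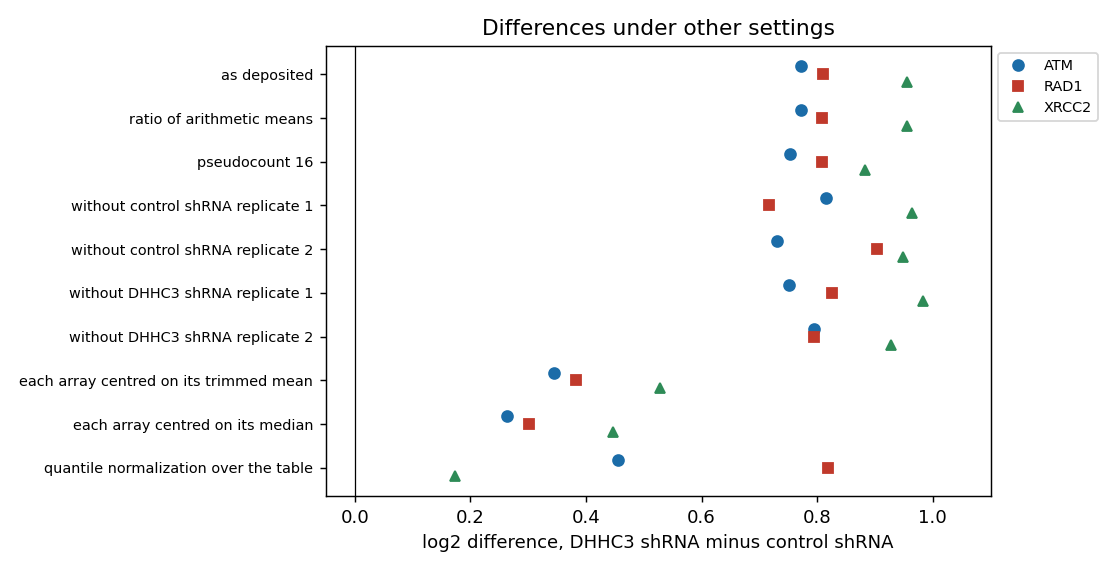
Log2 difference between DHHC3 shRNA and control tumors (x axis) for ATM, RAD1 and XRCC2 under each setting (y axis); every symbol is 1 value from the 4 arrays, or from 3 where an array was left out. All symbols lie to the right of 0; they cluster between 0.72 and 0.98 as deposited or with an array left out, move left when arrays are centred, and change order after quantile normalization.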

How the data were processed

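RNA from 4 xenograft tumors was amplified into biotin-labelled cRNA and read on 1 array per tumor, per the labels' protocols. The authors deposited linear intensity values for 137 probe sets. The summarisation method, background correction, scaling and any detection call were not given in the sources used here. Genes were named from the platform annotation: 101 probe sets had 1 symbol, 7 several and 29 none. The labels give mouse as the organism, while the annotation is that of a human array.

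Intensities were turned into log2 values with no pseudocount. Groups were compared with limma 3.58.1 (lmFit, eBayes) in R 4.3.3, on all 137 probe sets and 4 arrays without covariates, with Benjamini-Hochberg adjustment and a threshold of 0.05. The procedure was tested on simulated data. Folds are ratios of geometric means; figures used matplotlib 3.10.9. The number of arrays limits the precision, and since nothing says that tumors came from separate animals, p-values measure only the spread between these samples, which may be technical.

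The named genes were the 3 members, the targeted gene, list members present in the table, each member's 3 most similar genes and its neighbours in fold. GTF2H3 was named outside this rule, after its values were seen. The members and lists were chosen with earlier results of these data known. Alternatives covered scaling, pseudocount, the replicate number as a block, left-out arrays and filters. Sequences and positions of the human genes were not analysed here.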

Additional observations from a re-analysis of the deposited data

How the results depend on the processing

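ATM, RAD1 and XRCC2 were higher in the DHHC3 shRNA tumors under all 10 alternatives run for each. Both DHHC3 shRNA arrays lay above both control arrays for each gene, so only the rescalings of the arrays could have reversed the direction. As deposited the log2 difference was 0.77 for ATM, 0.81 for RAD1 and 0.96 for XRCC2. It became 0.26, 0.30 and 0.45 with arrays centred on their medians and 0.34, 0.38 and 0.53 with the trimmed mean. After quantile normalization ATM was 0.46 and XRCC2 0.17. A pseudocount of 16 gave 0.88 for XRCC2. Leaving out 1 array gave 0.73 to 0.82, 0.72 to 0.90 and 0.93 to 0.98; with 2 arrays per group this cannot move a value by more than the replicate SD. The median over all 137 probe sets went from 0.94 to 0.43 with median centring, 0.51 with the trimmed mean and 0.35 with quantile normalization. The number past the limma threshold was 137 as deposited and 60 (49 higher, 11 lower) with a 2-fold difference required. It was 124 of 137 (88 higher, 36 lower) with median centring and 104 of 137 (68 higher, 36 lower) with quantile normalization. Every probe set tested passed under the other alternatives, which tested 101 with 1 gene symbol, 102 without the dimmest 25% and 109 without the suffix _x_at. With the replicate number as a block all 137 passed and the members' differences were unchanged by construction; the titles' numbers do not show a pairing (correlation of deviations 0.06). DMC1 and ZDHHC3, with settings added after seeing the data, kept direction in 9 of 9 alternatives each. With all 4 arrays their limma adjusted p reached 0.0246 for DMC1 (quantile normalization) and 0.003 for ZDHHC3 (replicate block). As most of the table passed in each of these settings, those calls add little about either gene. Where an array was left out (4 of the 9), the lone array was assumed to vary like the other group, so only the direction is given. Each gene had 1 probe set, so no other could stand in. Signal over background is unknown, which bears most on XRCC2.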
